A study of Mus musculus with 2 samples.

Results

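The 9 genes described here belong to the signalling pathways of Nodal, activin and TGF-beta. They were Nodal, Tgfb1 and Tgfb2, which encode ligands, Lefty1, Lefty2 and Fst, which encode secreted inhibitors, and Acvr2a, Acvr2b and Tgfbr3, which encode receptors. They were taken by symbol from the 32285 genes of the count matrices, and each symbol matched 1 gene. The rule uses symbols, but the 9 genes were chosen with earlier results of these data known.

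Nodal, activin and TGF-beta are secreted dimers that bring together receptor pairs at the cell surface, after which Smad2 and Smad3 join Smad4 and enter the nucleus. Nodal needs a co-receptor of the Cripto family, and the Lefty proteins, which Nodal signalling itself turns on, block it. In the early embryo this circuit patterns the primitive streak, from which heart mesoderm and endoderm arise, while TGF-beta 2 and betaglycan, the product of Tgfbr3, are known for their part in the heart's valves and epicardium.

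Mouse D3 embryonic stem cells had been taken through cardiomyocyte differentiation and collected at day 6 for droplet single-cell RNA sequencing. One library came from cells of wild-type genotype (the control library), and 1 came from D3 cells of Zbtb16 knockout genotype. Zbtb16 encodes a zinc finger transcription factor, and the stated aim was to find the cells it regulates at that time. The sources used here do not give the deleted part of Zbtb16 or the number of clones. With 1 library per group no difference had a replicate check, none was tested, and every 95% interval below covers counting error only.

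Barcodes with at least 15000 UMIs (counted RNA molecules) and at most 10% mitochondrial UMIs were kept as cells, which left 6354 control cells with a median of 37324 UMIs and 9449 knockout cells with a median of 30513. Levels are CPM, a gene's UMIs scaled to 1000000 UMIs of the summed cells. Zbtb16 stood at 22.2 CPM in control cells and at 0.994 CPM in knockout cells. The libraries shared 16 cell barcodes, 0.252% of control and 0.169% of knockout cells.

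Cells were sorted into states by summed marker genes, and names such as endothelial-like refer to these gates. The makeup of the libraries differed: the cardiomyocyte-like gate held 788 control and 25 knockout cells, a gate on Isl1, Mef2c and other heart progenitor genes held 2229 and 126, and the mesenchymal-like gate held 1580 and 6509. The other gates held 286 and 430 endothelial-like, 110 and 203 endoderm-like, 23 and 201 pluripotent-like, and 220 and 481 proepicardial-like cells, with 0 and 28 blood-like cells and 1118 and 1446 in no gate. A gate is a range of a score, not a cell type. Of the cells in a gate, 80.5% of control and 83.6% of knockout proepicardial-like cells lay below 2 times the minimum score. The shares were 40.1% and 83.3% in the Isl1-Mef2c gate, 47.2% and 40.8% in mesenchymal-like cells and 10.9% and 64.0% in cardiomyocyte-like cells. They were at most 4.35% in the endothelial-like, endoderm-like and pluripotent-like gates of either library. The median cardiomyocyte score, in marker UMIs per 10000, was 99.95 in control and 37.6 in knockout cardiomyocyte-like cells, whose median mesenchymal scores were 2.15 and 2.76. In the knockout library the Isl1-Mef2c gate was led by more cardiomyocyte markers than markers of its own, so its values are given side by side and not compared. The median cardiomyocyte score in this gate was 15.5 in control and 2.14 in knockout cells.

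Lefty1 and Lefty2 are close copies of each other. Over the 1107 coding bases of each, 92.3% of aligned bases were identical (GENCODE M21, assembly GRCm38). The last 500 bases of the 2 transcripts had no stretch of 30 bases in common, so reads from there could be assigned, while reads from the coding part could be split between them. Annotated genes on the opposite strand overlap Fst, Acvr2a (Orc4), Acvr2b and Tgfb2, and the sources used here do not say whether counting used strand. The promoters of the ligands Nodal and Tgfb2, of which the first was highest and the other lowest in pluripotent-like cells, are shown next, 5′ to 3′ in the direction of transcription, from 250 bases before to 50 after the annotated start (RefSeq, GRCm38.p6). Capitals mark CAGAC, a letter string of Smad binding elements, searched on both strands. The Nodal window, chr10:61417722-61418021 on the plus strand, held 0 matches.
Nodal: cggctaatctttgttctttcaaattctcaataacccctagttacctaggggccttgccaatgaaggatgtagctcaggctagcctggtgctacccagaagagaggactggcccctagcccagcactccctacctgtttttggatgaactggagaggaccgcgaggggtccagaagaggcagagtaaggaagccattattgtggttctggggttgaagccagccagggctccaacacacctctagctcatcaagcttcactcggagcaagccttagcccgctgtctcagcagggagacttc
The Tgfb2 window, chr1:186705940-186706239 on the minus strand, held 2 matches, and a TATAAA string 31 bases before the start.
Tgfb2: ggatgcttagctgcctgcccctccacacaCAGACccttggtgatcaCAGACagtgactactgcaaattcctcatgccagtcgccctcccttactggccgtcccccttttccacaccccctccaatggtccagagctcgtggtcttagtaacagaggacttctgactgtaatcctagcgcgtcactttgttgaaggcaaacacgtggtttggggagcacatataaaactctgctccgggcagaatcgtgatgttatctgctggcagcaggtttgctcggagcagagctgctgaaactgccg
Of 32851 promoter windows of this length, 49.6% held CAGAC at least once, 16.2% held it 2 or more times and 13.6% held TATAAA, so these matches are common and describe only the letters.

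Over all cells, Fst and Tgfbr3 had the highest ratios of the 9 genes and Tgfb2 was the 1 gene at least 1.5-fold lower in knockout cells. Ratios are of CPM plus 1, which understates differences of low genes, and genes at 5 CPM or more in either library count as measured. Of the 9 genes 8 were measured. Lefty2, Nodal, Fst, Acvr2a and Tgfbr3, 5 genes, were at least 1.5-fold higher, where 12.7% of all 10289 measured genes were. Tgfb2 was at least 1.5-fold lower, where 6.75% of all measured genes were, and Acvr2b and Tgfb1 were neither. The median log2 ratio of the 8 was 0.70, against 0.02 over all genes. The 9 genes were chosen with earlier results of these data known, as were the gates and pathway lists. These counts, and those by state and by list below, are therefore a description.

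**Figure D1:**
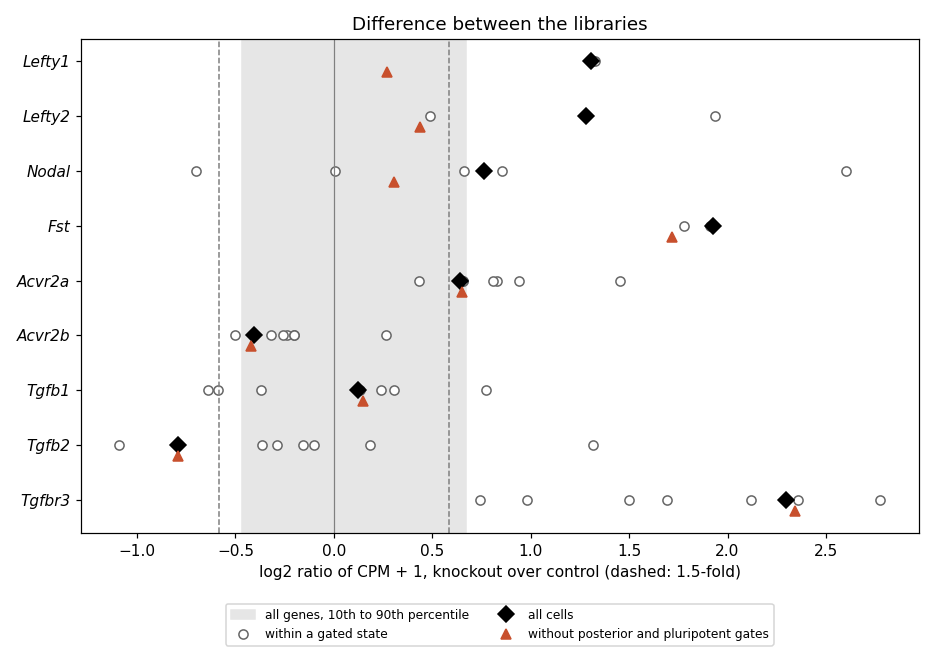
Log2 ratio of CPM plus 1, knockout over control, for each of the 9 genes. Diamonds are all cells, open circles are gated states with at least 20 cells per library and 5 CPM in either (states with 0 UMIs in a library left out), and triangles are all cells without the posterior and pluripotent-like gates. Grey marks the 10th to 90th percentile of all genes over all cells, not within a state, and dashed lines mark 1.5-fold. Tgfbr3 lies right of the grey band in every state drawn, and the Lefty1, Lefty2 and Nodal triangles lie left of their diamonds.

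Nodal, the ligand that maintains the primitive streak, was a gene of few cells. It stood at 4.48 CPM in control cells (95% interval 4.24 to 4.73) and at 8.29 CPM in knockout cells (7.99 to 8.60), a 1.85-fold difference (1.73 to 1.98). The log2 ratio over all cells was 0.76, and under 1.5-fold without the pluripotent-like gate (0.44), without the 2 cardiac gates (0.47) and with a prior, the value added to each CPM, of 5 in place of 1 (0.49). The 1% of cells richest in Nodal held 40.3% of the control and 36.3% of the knockout library's Nodal UMIs. In both libraries it was highest in pluripotent-like cells, at 53.8 CPM (44.2 to 64.9) in control cells and 85.8 CPM (80.1 to 91.7) in knockout cells. With every cell thinned to 15000 UMIs, Nodal was detected in 47.8% of control and 60.7% of knockout pluripotent-like cells (73.9% and 85.6% unthinned, median depths 60311 and 42750 UMIs). In endothelial-like cells, used as a low reference, it was detected in 2.45% and 2.79% (8.74% and 6.28% unthinned, median depths 52224 and 39037 UMIs). The share in pluripotent-like cells lay far above this reference in both libraries. The level in endoderm-like cells went the other way, at 11.9 CPM (9.65 to 14.5) in control cells and 6.94 CPM (5.50 to 8.65) in knockout cells, while the thinned shares of cells with a UMI were near each other, at 10% and 9.85% (40% and 18.7% unthinned). Mesenchymal-like cells had 5.11 and 5.13 CPM, with overlapping intervals. The 25 knockout cardiomyocyte-like cells had 23.3 CPM of Nodal against 3.00 CPM in control cells, from 28 UMIs, 25.0% of them in 1 cell. In the Isl1-Mef2c gate Nodal stood at 3.12 CPM in control cells and 19.8 CPM in knockout cells.

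Tgfb1, the TGF-beta ligand best known from blood vessels and immune cells, differed little between whole libraries, at 23.9 CPM (23.3 to 24.5) in control cells and 26.1 CPM (25.6 to 26.7) in knockout cells. Endothelial-like cells had the highest level in both, 76.2 CPM (72.2 to 80.4) in control cells and 50.3 CPM (47.3 to 53.4) in knockout cells, a 1.52-fold lower value (1.40 to 1.64). In every other state of either library Tgfb1 lay between 4.40 and 27.5 CPM. Pluripotent-like cells were lowest in both libraries, at 4.40 and 8.25 CPM. In endothelial-like cells Tgfb1 was the 1 of 5 measured genes at least 1.5-fold lower, where 5.69% of all genes were, and with TMM scaling (edgeR's library scaling), a prior of 5 in place of 1 or the length trend removed it fell short of that fold.

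Tgfb2, a ligand of heart and connective tissue, was found in most cells, in 89.1% of control and 70.4% of knockout cells after thinning (94.8% and 81.0% unthinned). It stood at 370 CPM (368 to 372) in control cells and at 213 CPM (212 to 215) in knockout cells, 1.73-fold lower (1.72 to 1.75). The cardiac gates were highest, with 514 CPM (506 to 522) in control and 584 CPM (542 to 629) in knockout cardiomyocyte-like cells, and 503 and 621 CPM in the Isl1-Mef2c gate. Proepicardial-like cells had 331 and 308 CPM and mesenchymal-like cells 276 and 214 CPM. Endothelial-like cells, at 73.8 and 66.1 CPM, lay far below these in both libraries. Within the 4 of these states that were compared, the libraries differed by less than 1.5-fold. The 2 cardiac gates held 59.5% of Tgfb2 UMIs in control cells and 4.51% in knockout cells. Without them, in both libraries, the log2 ratio was -0.36 in place of -0.79, under 1.5-fold. A pair of states of low level departed from this. In endoderm-like cells Tgfb2 stood at 120 CPM (113 to 128) in control cells and 55.8 CPM (51.5 to 60.3) in knockout cells. In pluripotent-like cells it stood at 10.3 CPM (6.36 to 15.7) and 27.1 CPM (24.0 to 30.5), but 61.9% of the 21 control UMIs came from 1 cell.

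**Figure D2:**
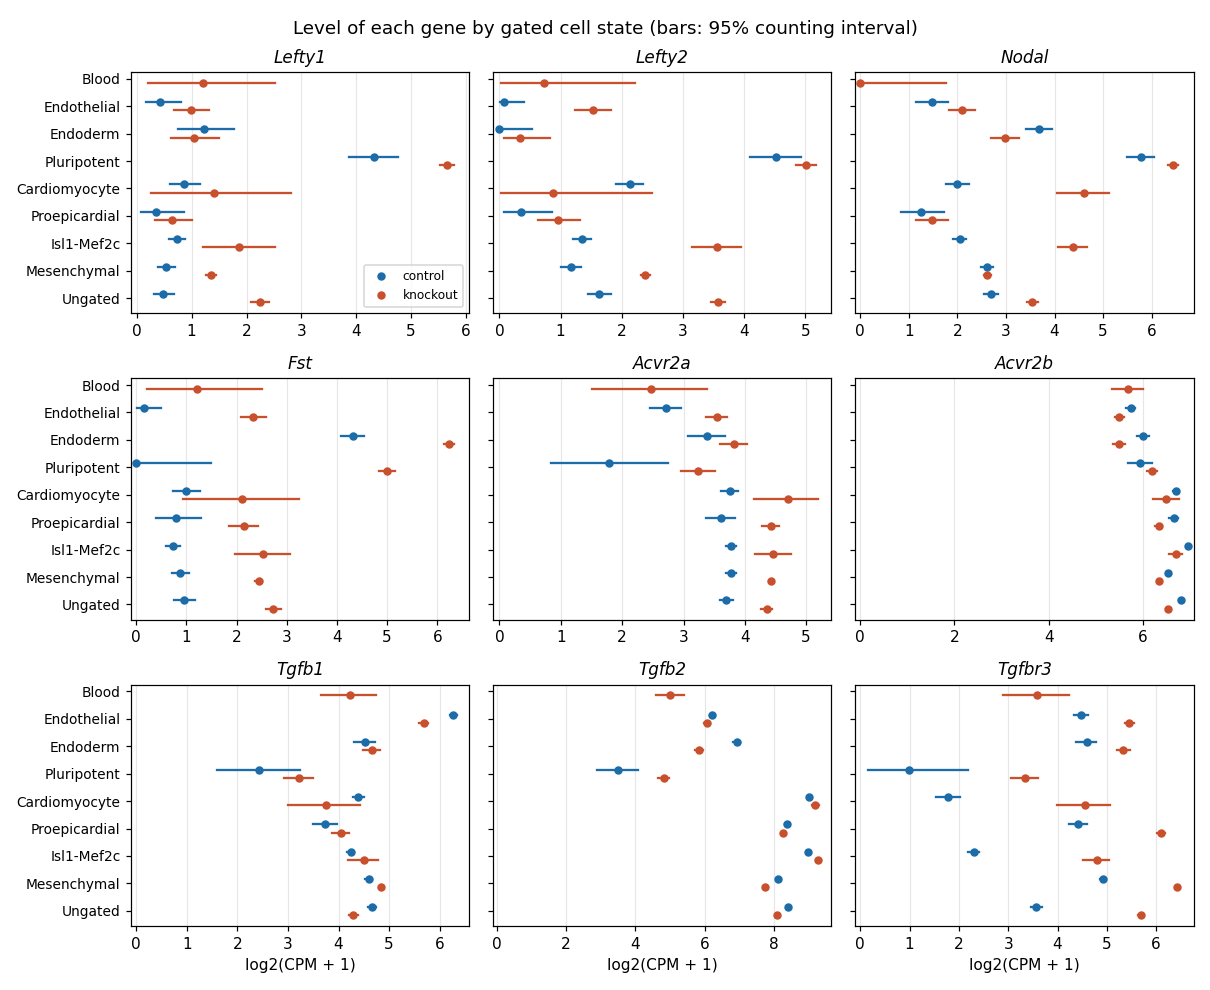
Level of each gene in each gated state, as log2 of CPM plus 1, for the control library (blue) and the knockout library (orange). Bars are 95% Poisson intervals for counting error, and gates with fewer than 20 cells in a library are not drawn. Nodal, Lefty1 and Lefty2 peak in pluripotent-like cells, Fst in endoderm-like cells, Tgfb1 in endothelial-like cells, Tgfb2 in the cardiac gates and Tgfbr3 in mesenchymal-like cells, in both libraries.

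Lefty1 and Lefty2, the feedback inhibitors of Nodal, had few UMIs, most of them in few cells. Lefty1 stood at 0.691 CPM in control cells, from 202 UMIs, and at 3.18 CPM in knockout cells, from 1090 UMIs, a 4.60-fold difference (3.96 to 5.37). Lefty2 stood at 1.71 CPM and 5.60 CPM, from 501 and 1922 UMIs, a 3.27-fold difference (2.96 to 3.62). Among the gates described so far, pluripotent-like cells had the highest levels, except that with cells in several gates left out the control Lefty2 level was highest in cardiomyocyte-like cells. Lefty1 there was at 19.1 CPM (13.6 to 26.1) in control cells and 49.3 CPM (45.0 to 53.8) in knockout cells, and Lefty2 at 22 CPM (16.1 to 29.5) and 31.3 CPM (27.9 to 35.0). The control values rested mostly on single cells: of the 23 control pluripotent-like cells, 1 held 69.2% of the Lefty1 UMIs and 1 held 91.1% of the Lefty2 UMIs. In the knockout library no single cell held more than 8.27% and 19.7%. Of the 201 knockout pluripotent-like cells, 22.4% had a Lefty1 UMI after thinning (32.3% unthinned), against 0.233% of its endothelial-like cells (2.09% unthinned). Lefty1 was detected in 28.7% of the 122 knockout pluripotent-like cells with Nodal and in 12.7% of the 79 without, and Tdgf1, the Cripto co-receptor, in 83.6% and 58.2%. These cells share a library, so the shares are a description. Outside the pluripotent-like gate, Lefty2 was detected in 11.7% of the 274 control cells with Nodal and in 0.677% of the 6057 without.

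A second group of knockout cells carried much of the Lefty RNA. Among knockout cells outside the pluripotent-like gate, 47 had at least 5 Lefty2 UMIs after thinning, and the genes highest in them over other cells were Hoxc10, Lefty1, Hoxd11, Hoxa9, Epha5, Mmp9, Hoxc9, Hoxc11, Cdx2 and Hoxc8. Hox genes of groups 9 to 11 and Cdx2 mark the posterior part of the embryo. A posterior gate was therefore defined, after these values were seen, from 11 such genes at 5 UMIs per 10000. It held 153 knockout cells, 1.62% of the library, and 2 control cells. Of the 153 cells, 77 were mesenchymal-like, 69 in no gate and 3 pluripotent-like. Because the gate was found through Lefty2, and Lefty1 was among the genes leading the same cells, its Lefty1 and Lefty2 levels are a description and support nothing. With the minimum at 2.5 or 10, the gate held 53.4% or 32.4% of the library's Lefty2 UMIs, against 45.7% at 5.

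In the posterior cells of the knockout library Lefty2 stood at 154 CPM (144 to 165), against 3.09 CPM in the other cells, and was detected in 51.0% of cells after thinning (62.7% unthinned). Lefty1 stood at 68.1 CPM (61.5 to 75.2) against 2.08 CPM. Nodal stood at 45.0 CPM against 7.67 CPM and Fst at 33.4 CPM against 7.15 CPM. Nodal RNA went with Lefty2 RNA in single cells, so its level here is also a description and supports nothing. Outside the pluripotent-like gate, Nodal was detected in 55.8% of knockout cells with Lefty2 and in 4.08% of those without. Among the other members, Tgfb2 (474 against 209 CPM) and Acvr2b (134 against 77.2 CPM) were higher in posterior cells. Tgfbr3 was lower, at 14.4 against 72.3 CPM, and Tgfb1 and Acvr2a were near the other cells, at 22.2 against 26.2 CPM and 21.6 against 19.0 CPM. Sox2, a factor of pluripotent and neural cells, stood at 145 against 21.2 CPM and Pitx1, a hindlimb factor, at 185 against 22 CPM. The pluripotency factor Pou5f1 stood at 17.6 against 16.3 CPM and Tdgf1 at 6.51 against 5.88 CPM. These other cells include 198 pluripotent-like cells, so the near values do not describe the remaining states. In the knockout library Tdgf1 stood at 184 CPM in pluripotent-like cells, 0.178 CPM in mesenchymal-like cells and 0.654 CPM in cells of no gate. In the posterior gate 1 cell held 59.5% of the 37 Tdgf1 UMIs and 1 held 34% of the 100 Pou5f1 UMIs.

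Posterior and pluripotent-like cells together made up 3.71% of the knockout library and held 73.4% of its Lefty1, 58.0% of its Lefty2, 38.5% of its Nodal and 18.8% of its Fst UMIs. In the control library the same gates held 0.393% of cells and 19.3%, 9.38%, 8.54% and 0% of these UMIs. Among the remaining cells Lefty1 stood at 0.561 (control) and 0.885 CPM (knockout), Lefty2 at 1.56 and 2.47 CPM, and Nodal at 4.13 and 5.34 CPM. Free RNA is read from barcodes with few UMIs, with limits given for Fst below. It had 0.561 (control) and 2.89 CPM (knockout) of Lefty1, from 3 and 12 UMIs (intervals 0.116 to 1.64 and 1.49 to 5.04). Of Lefty2 it had 1.31 and 6.02 CPM, from 7 and 25 UMIs (0.527 to 2.70 and 3.89 to 8.88). Lefty1 and Lefty2 in the remaining knockout cells lay below these intervals, and in control cells within them. The part of free RNA in these levels was not tested. Without both gates the log2 ratio of Lefty1 was 0.27, that of Lefty2 0.44 and that of Nodal 0.31, none reaching 1.5-fold, and 3 members were at least 1.5-fold higher. Removing cells found through Lefty2 lowers the knockout Lefty values by construction, so this is a description. Nodal was detected more often in cells with Lefty2, so its lower ratio is not a separate result. With the pluripotent-like gate alone left out, Lefty2 stood at 1.57 and 4.83 CPM (log2 ratio 1.18), under the 5 CPM needed to count as measured. Without both gates, Fst and Tgfbr3 had log2 ratios of 1.72 and 2.34. In the control library, 9 cells outside the pluripotent-like gate had 5 or more Lefty2 UMIs after thinning, and the genes highest in them were Sox2, Nodal, Trim67 and Mmp9, with no Hox gene among the top 10.

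**Figure D3:**
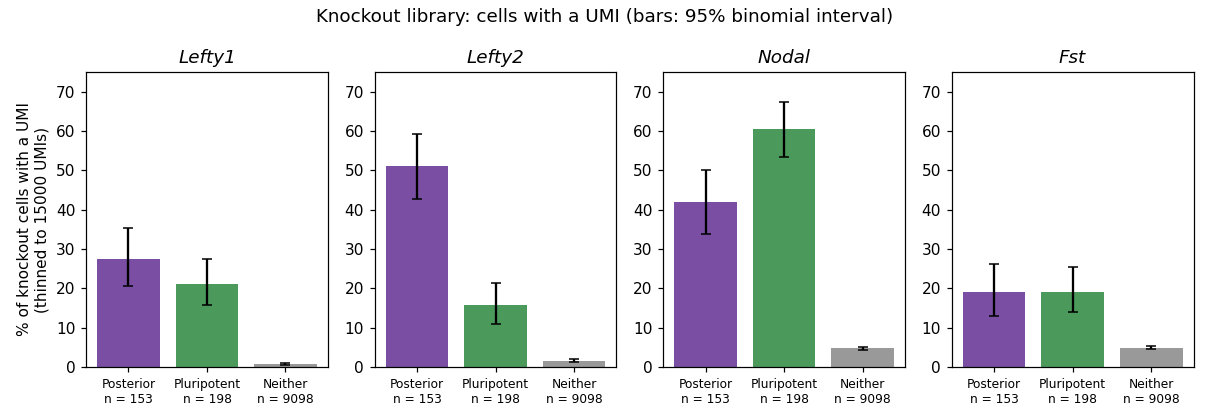
Share of knockout cells with a UMI of Lefty1, Lefty2, Nodal and Fst after thinning to 15000 UMIs, in the posterior gate (153 cells), the remaining pluripotent-like cells (198) and cells in neither (9098). Bars show 95% Clopper-Pearson intervals. Lefty2 is most frequent in posterior cells, at 51.0%, and Nodal in pluripotent-like cells, at 60.6%.

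Fst encodes follistatin, which binds activin and holds it away from its receptors. It stood at 1.26 CPM (1.13 to 1.39) in control cells and 7.59 CPM (7.30 to 7.89) in knockout cells, a 6.03-fold difference (5.41 to 6.75). Endoderm-like cells were highest, at 18.9 CPM (16.0 to 22.1) in control cells and 73.9 CPM (69.0 to 79.1) in knockout cells, and 14.5% and 31.0% of them had a UMI after thinning (30% and 48.8% unthinned). Control pluripotent-like cells had 0 UMIs and knockout ones 30.9 CPM (27.6 to 34.5), which was at least 21.1-fold higher taking the limit of 3 counts for the control. Mesenchymal-like cells had 0.836 CPM in control cells and 4.41 CPM in knockout cells, and cells in no gate 0.935 and 5.64 CPM. Fst was higher in knockout cells in each of these 4 states. Free RNA, read from barcodes with 10 to 100 UMIs, had 1.31 CPM of Fst in the control library (0.527 to 2.70, from 7 UMIs). In the knockout library it had 6.74 CPM (4.48 to 9.74, from 28 UMIs). These values lay above those of mesenchymal-like and ungated cells in both libraries, but with overlapping intervals. The part of free RNA in those states was not tested. Knockout cells with 5 or more thinned Fst UMIs numbered 30, 17 of them endoderm-like, and the genes highest in them over other cells included Reln, Foxq1, Ihh and Sox17, the last an endoderm factor. The genes of activin itself, Inhba and Inhbb, gave 41 and 1 UMIs in control cells and 26 and 19 in knockout cells.

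The type 2 activin receptors Acvr2a and Acvr2b, which bind activin and Nodal, differed in opposite directions. Acvr2a stood at 11.9 CPM (11.5 to 12.3) in control cells and 19.1 CPM (18.6 to 19.6) in knockout cells, and Acvr2b at 104 CPM (103 to 105) and 78.2 CPM (77.2 to 79.1). Acvr2a was 1.62-fold higher in mesenchymal-like cells (1.51 to 1.74), 1.92-fold in endothelial-like cells (1.5 to 2.46) and 1.39-fold in endoderm-like cells (1.05 to 1.85). With the trend on transcript length removed, its log2 ratio was 0.36 over all cells, 0.35 in mesenchymal-like, 0.55 in endothelial-like and 0.51 in proepicardial-like cells, all under 1.5-fold. With a prior of 5 it was 0.51, 0.53 and 0.57 in the first 3 of these. Acvr2b was lower in every compared state but the pluripotent-like one, by 1.15-fold in mesenchymal-like cells (1.12 to 1.18) and 1.42-fold in endoderm-like cells (1.26 to 1.61), and did not reach 1.5-fold in any. In pluripotent-like cells it stood at 60.2 and 72.5 CPM with overlapping intervals. In cardiomyocyte-like cells the interval of its 1.15-fold lower level (0.949 to 1.41) includes no difference. Neither gene was tied to 1 state: the highest control level of Acvr2b, 124 CPM in the Isl1-Mef2c gate, compared with a lowest of 52.5 CPM in endothelial-like cells.

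Tgfbr3 encodes betaglycan, a co-receptor that presents TGF-beta 2 to its signalling receptors. It stood at 13.7 CPM (13.3 to 14.1) in control cells and 71.3 CPM (70.4 to 72.2) in knockout cells, a 5.20-fold difference (5.03 to 5.38). In the control library it was highest in mesenchymal-like cells, at 29.4 CPM (28.2 to 30.7), and low where Tgfb2 was highest, in cardiomyocyte-like cells at 2.42 CPM (1.89 to 3.05) and the Isl1-Mef2c gate at 3.93 CPM. Control pluripotent-like cells, with 2 UMIs, were low for both genes, and the knockout ones were 9.34-fold higher (2.51 to 78.3). In the knockout library mesenchymal-like cells stood at 84.9 CPM (83.7 to 86.1), 2.89-fold higher than in control cells (2.76 to 3.02), and 67.2% of them had a UMI after thinning against 32.5% (84.6% and 60.6% unthinned). Proepicardial-like cells were 3.34-fold higher (2.89 to 3.87), endothelial-like cells 2.02-fold (1.79 to 2.28) and endoderm-like cells 1.70-fold (1.43 to 2.03). Tgfbr3 was at least 1.5-fold higher in each of the 7 compared states, but in endoderm-like cells its log2 ratio was 0.42 with the length trend removed and 0.41 at a 5% mitochondrial limit, both under 1.5-fold. The same free RNA had 16.7 (control) and 78.4 CPM (knockout) of Tgfbr3, 365 and 226 CPM of Tgfb2, and 4.31 and 10.1 CPM of Nodal. These lie close to the whole libraries, and their part in the levels of low states was not tested. Without the 2 cardiac gates the log2 ratio over all cells was 1.70 in place of 2.30.

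Counted by state, the genes at least 1.5-fold higher were Acvr2a and Tgfbr3 in endothelial-like cells (2 of 5 measured, where 11% of all genes were higher), the same 2 in mesenchymal-like cells (of 6, 11.4%) and in proepicardial-like cells (of 5, 11.8%). In the last 2 states 0 were lower, where 4.02% and 4.84% of all genes were. In endoderm-like cells they were Fst and Tgfbr3 (of 7, 13.8%), with Nodal and Tgfb2 at least 1.5-fold lower (7.15% of all genes). In pluripotent-like cells 7 of 9 were higher, where 20.6% of all genes were, and 0 were lower (6.02%). That comparison rests on 23 control cells, and the Tgfb1 interval (0.940-fold to 4.24-fold higher, from 9 control UMIs) includes no difference. Among cardiomyocyte-like cells Nodal, Acvr2a and Tgfbr3 were higher (3 of 6, 18.3%) and Tgfb1 was lower (13.2%), with 25 knockout cells, and the Tgfb1 interval there (0.964-fold to 2.88-fold lower) includes no difference. In cells of no gate Lefty2, Nodal, Fst, Acvr2a and Tgfbr3 were higher (5 of 8, 11.8%) and 0 were lower (6.57%). Cells of no gate are a remainder, not a matched state. They included 69 of the 153 posterior cells of the knockout library, found through Lefty2, and 2 posterior cells of the control library. The part of posterior cells in these counts was not tested.

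The other genes of the pathway were read from 7 lists with 57 genes, of which 34 were measured over all cells. Of these, 9 were at least 1.5-fold higher and 2 lower, with a median log2 ratio of 0.30, against 12.7% and 6.75% of all genes and a median of 0.02. Cfc1, the Cryptic co-receptor of Nodal in lateral mesoderm, had the largest ratio: it stood at 51.2 CPM in control cells and 11.7 CPM in knockout cells. It was 4.31-fold lower in mesenchymal-like cells (4.01 to 4.63), while endoderm-like cells had 129 and 146 CPM. Tdgf1 stood at 7.84 and 5.89 CPM. Control cardiomyocyte-like cells had 52.9 CPM of Tdgf1 and pluripotent-like cells 103 CPM, against at most 4.31 CPM in any other control gate. Furin, a protease that cuts ligand precursors, was the other lower gene, at 67.3 and 42.9 CPM.

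Of 3 measured signalling receptors outside the set 2 were at least 1.5-fold higher, and of 9 measured Smads and Smad partners 2 were, with 0 lower in both lists, where 12.7% of all genes were higher and 6.75% lower. Tgfbr1 stood at 42.5 CPM in control cells and 65.5 CPM in knockout cells (log2 ratio 0.61) and Tgfbr2 had a log2 ratio of 0.81. Acvr1b had 0.29, Smad2 0.56, Smad3 0.34 and Smad4 0.25, all under 1.5-fold. Zfyve9, which anchors Smads to the receptor, stood at 19.6 and 41.2 CPM, and Smurf2, a ubiquitin ligase that removes receptors, at 20.6 and 34.1 CPM. Fstl1, Tgfbi and Ltbp1 had log2 ratios of 0.52, 0.52 and 0.34.

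Targets of the pathway differed by state. Of the 7 listed Nodal targets, 3 were measured in pluripotent-like cells. All 3 were at least 1.5-fold higher, where 20.6% of all genes were. Among them T and Eomes, genes of the primitive streak, stood there at 1.47 and 2.94 CPM in control cells, from 3 and 6 UMIs. In knockout cells they stood at 44.8 and 16.5 CPM, a 30.5-fold difference for T (10.4 to 149). Of these control UMIs, 1 cell held 100% for T and 1 held 66.7% for Eomes. Listed Nodal targets were also higher in other states: 3 of 3 measured in cardiomyocyte-like cells (18.3% of all genes) and 2 of 3 in cells of no gate (11.8%). In endoderm-like cells 1 of 3 was (13.8%), and 1 of 1 in endothelial-like (11%), mesenchymal-like (11.4%) and proepicardial-like cells (11.8%). In each compared state 0 were lower, where 4.02% to 13.2% of all genes were. Of the TGF-beta target list, 3 of 10 measured genes were at least 1.5-fold higher over all cells and 0 lower, where 12.7% and 6.75% of all genes were. Snai2 stood at 95.6 and 178 CPM and Tagln at 111 and 186 CPM. Smad7, an inhibitory Smad, had a log2 ratio of 0.31. By state, 0 of 9 measured targets were higher in mesenchymal-like cells (11.4% of all genes) and 1 of 9 in proepicardial-like cells (11.8%). In endoderm-like cells 2 of 9 were (13.8%), in pluripotent-like cells 3 of 9 (20.6%) and in cardiomyocyte-like cells 6 of 9 (18.3%). In cells of no gate 3 of 10 were (11.8%). Among these states only pluripotent-like cells had a lower target, 1 of 9 (6.02%). In endothelial-like cells 5 of 11 measured targets were at least 1.5-fold lower and 0 higher, where 5.69% and 11% of all genes were, among them Smad7 at 92.3 and 59.2 CPM and Pmepa1 at 16.7 and 7.69 CPM.

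**Figure D4:**
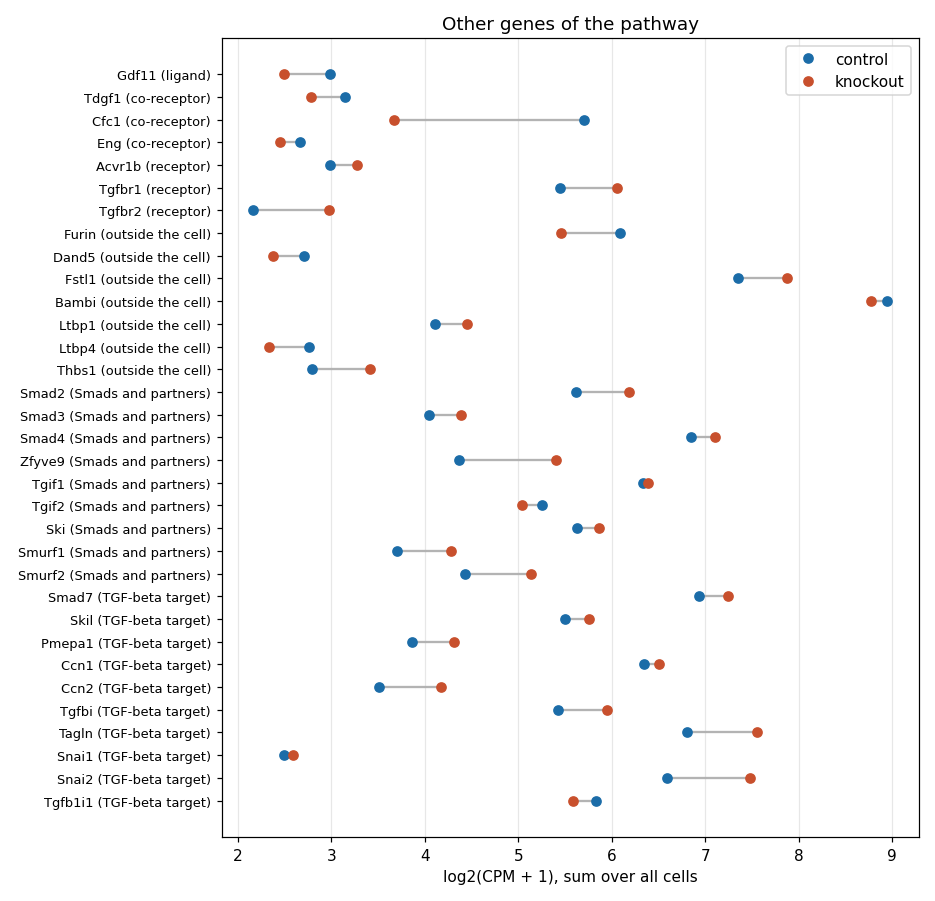
Levels of 33 of the 34 measured genes of the other pathway lists over all cells, as log2 of CPM plus 1, for the control library (blue) and the knockout library (orange), 1 library each, with the list of each gene in brackets. Cfc1 shows the longest line to the left and, of the genes drawn, Zfyve9 the longest to the right.

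Ratios between the libraries moved with transcript length over all genes (Spearman rho 0.451 across 10286 genes, which share the 2 libraries). Acvr2a, Tgfb2 and Tgfbr3 have the longest transcripts of the set, at 5686, 5116 and 6087 bases. With a smooth trend on length removed, Acvr2a had a log2 ratio of 0.36 in place of 0.64, under 1.5-fold. Tgfb2 had -1.04 in place of -0.79 and Tgfbr3 1.99 in place of 2.30. Fst (1.92), Lefty2 (1.33) and Nodal (0.86) were little altered.

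**Figure D5:**
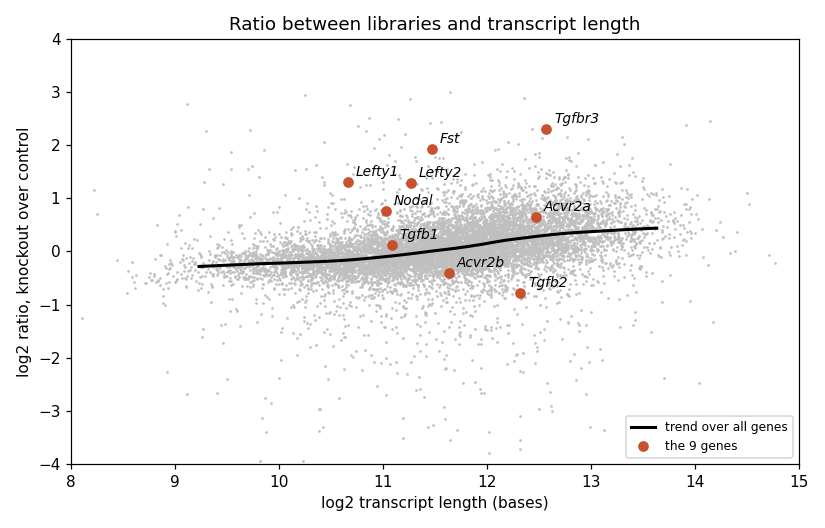
Log2 ratio of knockout over control against log2 transcript length for all measured genes (grey), with the trend over all genes (black line) and the 9 genes (orange). Tgfbr3 and Fst lie above the cloud's trend and Tgfb2 below it.

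Over the 17 sums of a state and a library with at least 20 cells, the genes whose log2 levels were most like those of each member, by Pearson r among 8540 genes, were as follows. Tgfb2 was most like Dact1 (0.97), Capn6 and Tbx20, the last a marker of the Isl1-Mef2c gate. Tgfbr3 was most like Rrbp1 (0.97), Man2a1 and Pacsin2. Lefty2 was most like Sox2 (0.91), a marker of the pluripotent-like gate, and Lefty1 was most like Ina (0.95). Nodal was most like Irf1 (0.94) and Tet1. Fst was most like Pgap1 (0.90), Acvr2a like Zfp26 (0.97), Acvr2b like Armcx5 (0.96) and Tgfb1 like Pon2 (0.94). Lefty1 and Lefty2 had an r of 0.84 with each other and of 0.81 and 0.71 with Nodal. These sums share 2 libraries and their gates, so the values describe and test nothing.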

How the data were processed

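Droplet single-cell libraries were prepared with an MGI DNBelab C kit and read on a DNBSEQ instrument, per the labels' protocols. The authors deposited unfiltered matrices of raw UMI counts, 1 row for each pair of gene and barcode, written by Cell Ranger 4 per the file headers. Cell Ranger, R 4.1.1, GRCm39 and mm39 are named in the submitters' processing notes. The sources used here do not say how DNBelab barcodes became Cell Ranger barcodes.

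Everything further was computed here. The matrices hold 308465930 control and 357324373 knockout UMIs, and cells range from 15004 to 293744 UMIs. The mitochondrial limit removed 24 control and 50 knockout barcodes. Counts were summed over cells and scaled to CPM with total UMIs. Intervals at 95% are exact Poisson for sums and Clopper-Pearson for shares. A cell entered 1 of 8 gates when its markers reached the gate's minimum per 10000 UMIs with at least 3 markers detected, and cells reaching several (41.4% of control, 17.9% of knockout cells) went to the one with the highest ratio of score to minimum. No doublet caller was run. Alternatives instead left out cells in several gates and the top 5% of cells by UMIs. Shares of cells use each cell thinned to 15000 UMIs with a fixed seed.

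The 9 members, the gates and the pathway lists were chosen with earlier results of these data known. Named genes are the 9 members, Tdgf1, Acvr1b, Tgfbr1, Tgfbr2, Smad2, Smad3, Smad4 and Smad7, the 12 pathway genes with the largest ratios at 20 CPM or more, and the 3 genes most like each member. Other genes were named after their values were seen: Inhba, Inhbb, Eomes, T, Pmepa1, Sox2, Pitx1, Pou5f1 and the genes leading Lefty2-rich and Fst-rich cells. A pathway gene that this rule names, counted in the list totals, and a gene leading Fst-rich cells are not reported here. Transcript lengths came from GENCODE M21 (99.97% of measured genes matched by identifier), and the trend is a lowess fit (statsmodels 0.14.6). The call rule was tested on simulated data. Alternatives covered the UMI and mitochondrial limits, edgeR 4.0.16 TMM factors, the gate minima, thinning, length, the filter on low values, the prior and equal weight per cell. Tools were Python 3.11.15, numpy 2.4.6, scipy 1.17.1 and pandas 2.3.3.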

Additional observations from a re-analysis of the deposited data

Results flagged for a closer look

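Nodal and Tgfb2 differed between the libraries in opposite directions in different states, and these differences between states were not tested. The log2 ratio of Nodal was 0.66 in pluripotent-like cells, 2.60 in cardiomyocyte-like cells and 0.86 in cells of no gate, but -0.70 in endoderm-like cells. That of Tgfb2 was 1.32 in pluripotent-like and -1.09 in endoderm-like cells. The pluripotent-like and cardiomyocyte-like values rest on 23 control and 25 knockout cells. Cells of no gate are a remainder, not a matched state, and included 69 posterior cells in the knockout library and 2 in the control library.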

How the results depend on the processing

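No paired analysis was possible because 1 library stands for a group, so nothing could be tested. Of the counts of genes under the alternatives, 200 lay within 1.5 times the reported count and 32 did not. Of ratios, 540 lay within the counting interval of the reported one and 120 did not, and 0 at least 1.5-fold changed sign. Over all cells, the members at least 1.5-fold higher numbered 3 in place of 5 with a prior of 5, and 1 at 20 CPM or more. They numbered 3 without pluripotent-like cells, where Lefty2 dropped below 5 CPM with a log2 ratio of 1.18, and 3 without these and posterior cells. Members lower numbered 0 in place of 1 without the cardiac gates. Pathway genes higher numbered 5 in place of 9 with a prior of 5 and 5 with the length trend removed. Pathway genes lower numbered 4 in place of 2 with equal weight per cell, 4 with the length trend removed and 4 without posterior and pluripotent-like cells. Of members in endothelial-like cells, 1 was higher in place of 2 with a prior of 5, at 20 CPM or more and with the length trend removed, and 0 lower in place of 1 with TMM, a prior of 5 or the length trend removed. In endoderm-like cells 1 was lower in place of 2 with a prior of 5 or at 20 CPM, and 1 higher in place of 2 with the length trend removed. In cardiomyocyte-like cells 0 were lower in place of 1 at a 5% mitochondrial limit, with equal weight per cell, a prior of 5, at 20 CPM, with the length trend removed and with gate minima lowered to 50%. In mesenchymal-like cells 1 was higher in place of 2 with a prior of 5 and with the length trend removed, which also gave 1 lower in place of 0. In proepicardial-like cells 1 was higher in place of 2 with the length trend removed. In pluripotent-like cells 4 were higher in place of 7 at 20 CPM, and in cells of no gate 3 in place of 5 with a prior of 5 and 1 at 20 CPM. The stricter filter tests fewer genes, and of the other alternatives the cause was not tested. Posterior, pluripotent-like and cardiac removals were chosen after seeing the data. Lefty1 ranged from 0.27 to 2.05 in log2 ratio over the alternatives, Nodal from 0.31 to 0.99, Tgfbr3 from 1.70 to 2.45, Fst from 1.01 to 2.5, Tgfb2 from -1.04 to -0.36 and Acvr2a from 0.36 to 0.70. Depth limits the rare genes most: Lefty1 rests on 202 control UMIs. Without thinning, all 18 shares of cells with a UMI moved by more than their interval, where thinning can only lower a share.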
